A study of Mus musculus with 9 samples.

Results

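SR proteins and hnRNP proteins are the 2 large families of RNA-binding proteins that set which exons are spliced into an mRNA. The 33 genes described here are the rows of the deposited table whose symbol is Srsf with a number, Tra2a, Tra2b, or begins with Hnrnp. Of 15977 genes in the table, 13 are SR or Tra2 genes and 20 are hnRNP genes, and 1 hnRNP pseudogene row was left out. The rule goes by symbol and uses no measured value.

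SR proteins carry a region rich in arginine and serine, bind exonic enhancers and help recruit the spliceosome, and kinases of the CLK and SRPK families set their location and activity by phosphorylation. The hnRNP proteins coat nascent transcripts, often bind silencers, and many of them also act in export, stability and translation of mRNA. Many genes of both families hold ultraconserved "poison" exons, whose inclusion sends the transcript to nonsense-mediated decay, so that a protein can limit its own mRNA.

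The RNA came from N2A, a mouse neuroblastoma line, with MOV10 knocked out in all cells used. MOV10 is an RNA helicase of the cytoplasm that binds 3′ UTRs and acts with the microRNA machinery. The knockout cells were transfected with 2 µg of DNA for MOV10 S970D, in which serine 970 is replaced by aspartate, a residue often used to mimic a phosphorylated serine. A second group received MOV10 S970A, with alanine, which cannot be phosphorylated, and the third group received wild-type MOV10 (WT). RNA was harvested after 24 h, with 3 libraries in each group. No library of untransfected knockout cells or of unmodified N2A cells was analysed here, the labels do not say whether the knockout is a single clone, and they give neither the vector nor its promoter. No label says that replicates were separate cultures, so p-values measure the spread between these libraries, which may be technical. Values are log2 CPM, the log2 of a gene's counts scaled to library size, with 1 value per gene and library and no isoform levels.

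Mov10 stood at 14.57, 14.84 and 14.75 log2 CPM in the S970D libraries, 14.62, 15.24 and 15.42 in the S970A libraries and 14.90, 15.49 and 15.71 in the WT libraries, so that it was high in all 9 and lowest in the S970D libraries and S970A replicate 1. The part of this level in the results below was not tested. The line's neuronal character was visible, with 14 of 15 neuroblastoma and neuron markers in the table and group means of Tubb3, a neuronal tubulin, at 9.67, 9.41 and 9.41 in S970D, S970A and WT. The catecholamine enzyme gene Th was near the low end, at -0.41, -1.17 and -1.71. Of 25 markers of fibroblasts, leukocytes, epithelium, endothelium and glia, 8 were in the table, and their summed level was 28.9 to 33.5 CPM in S970D, 26.5 to 33.9 in S970A and 29.9 to 34.6 in WT. The summed level of the 14 neuronal markers was 3558, 3020 and 2978 CPM in S970D and 3240 in S970A replicate 1, against 2239 and 2119 in the other S970A libraries and 2090 to 2355 in WT. With the replicate block described below, 7 of these 14 rose and 3 fell in S970D against WT. Among all genes, 22.2% rose and 23.3% fell in that fit. With the trend on GC content and length removed as well, 3 rose and 0 fell, against 12.7% and 12.2% of all genes. With that trend taken from the longest transcript of each gene, 4 rose and 2 fell, against 14.4% and 12.9%. The part of these marker levels in the results was not tested. Transcript length and GC content also moved with the groups, with the median deviation of the shortest 10% of coding genes minus that of the longest 10% at 0.53 to 0.90 in the S970D libraries and 0.95 in S970A replicate 1, against -0.47 and -0.76 in the other S970A libraries and 0.00 to -0.99 in the WT libraries. S970A replicate 1 therefore stood with S970D in this respect, and results are given with and without it.

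The genes' start regions show what the families share in sequence and where 4 leading members differ. RefSeq windows of GRCm38.p6, from 250 bases before to 50 bases after the start, were found for 31 of the 33 genes, Hnrnpll and Hnrnpul2 being the exceptions. The windows of Srsf2 (chr11:116853045-116853344, minus strand), Srsf11 (chr3:158036557-158036856, minus strand, the first of its 2 windows), Hnrnpa1 (chr15:103240147-103240446, plus strand) and Hnrnpu (chr1:178337766-178338065, minus strand) are shown because Srsf2 was called higher in S970D with the replicate block and the others were called lower with it. Capitals mark matches on either strand to the GC box GGGCGG, the CCAAT box CCAAT, the ETS site CCGGAAG and the TATA box TATAAA, and the longer runs in capitals are GC boxes that share bases.
Srsf2: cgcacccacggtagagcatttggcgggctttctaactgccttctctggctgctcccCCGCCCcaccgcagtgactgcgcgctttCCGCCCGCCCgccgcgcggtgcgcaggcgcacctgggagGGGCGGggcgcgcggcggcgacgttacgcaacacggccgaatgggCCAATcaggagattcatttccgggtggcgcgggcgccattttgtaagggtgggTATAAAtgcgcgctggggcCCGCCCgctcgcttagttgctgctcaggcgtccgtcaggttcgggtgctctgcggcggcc
Srsf11: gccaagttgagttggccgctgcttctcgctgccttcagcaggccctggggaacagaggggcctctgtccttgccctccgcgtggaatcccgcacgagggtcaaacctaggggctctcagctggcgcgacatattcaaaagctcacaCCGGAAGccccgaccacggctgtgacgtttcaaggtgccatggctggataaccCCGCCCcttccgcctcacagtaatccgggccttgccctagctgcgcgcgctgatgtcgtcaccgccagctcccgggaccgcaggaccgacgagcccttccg
Hnrnpa1: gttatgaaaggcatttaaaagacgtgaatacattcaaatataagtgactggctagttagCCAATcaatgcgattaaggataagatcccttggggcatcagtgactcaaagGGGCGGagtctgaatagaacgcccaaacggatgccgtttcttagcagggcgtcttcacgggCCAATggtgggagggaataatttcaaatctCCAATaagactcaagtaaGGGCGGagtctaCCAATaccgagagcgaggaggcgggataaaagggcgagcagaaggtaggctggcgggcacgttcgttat
Hnrnpu: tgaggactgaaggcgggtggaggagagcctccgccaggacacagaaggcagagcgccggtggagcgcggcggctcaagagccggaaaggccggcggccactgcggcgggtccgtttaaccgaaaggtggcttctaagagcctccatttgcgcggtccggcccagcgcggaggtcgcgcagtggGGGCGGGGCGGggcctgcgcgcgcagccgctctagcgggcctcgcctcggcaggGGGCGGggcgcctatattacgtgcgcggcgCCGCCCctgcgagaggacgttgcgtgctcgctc

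Both families had promoters rich in G and C. The median window was 68.7% GC over the SR genes and 66.3% over the hnRNP genes, against 52.7% over all windows. A GC box lay in 12 of 13 SR genes and 14 of 18 hnRNP genes, against 38.2% of all genes. For promoters, all genes means the 27025 genes with a RefSeq window, not the 15977 genes of the table. They were not limited to genes expressed here, whereas nearly all members were well expressed. The CCAAT box, which Hnrnpa1 holds 4 times, was found in 5 of 13 SR genes and 13 of 18 hnRNP genes, against 41.1% of all genes. The E box CACGTG was in 0 of 13 SR genes and in 5 of 18 hnRNP genes (Hnrnpa3, Hnrnpd, Hnrnpf, Hnrnph2 and Hnrnpm), against 8.09% of all genes. The ETS site was in 4 SR genes (Srsf4, Srsf5, Srsf7 and Srsf11) and 2 hnRNP genes, against 9.93% of all genes. The TATA box was in Srsf2, Srsf3, Hnrnpab and Hnrnpm, against 15.7% of all genes. TGACGTCA, the cyclic AMP response element, was found in Tra2a, against 2.03% of all genes. A match describes letters in a window and says nothing of binding in these cells. The promoters and motifs were chosen after the values were seen.

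Of these genes, nearly all were well expressed in N2A. Per kilobase of transcript and on the CPM scale, the mean level over the 9 libraries was highest for Hnrnpab, an RNA- and DNA-binding protein also known as CBF-A, at 1312 CPM per kb. Hnrnpa2b1 at 753, Hnrnpa3 at 567 and Hnrnpa1 at 412 came next, all 3 being relatives of the A/B class. The leading SR gene was Srsf1, the founding member of its family, at 316 CPM per kb, and Srsf2 followed at 171. Srsf12 was the exception at 0.0829 CPM per kb, with a mean of -2.12 log2 CPM, near the lowest value of the table at -4.09. The other 12 SR genes and all 20 hnRNP genes lay at 13.7 CPM per kb or more.

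**Figure D1:**
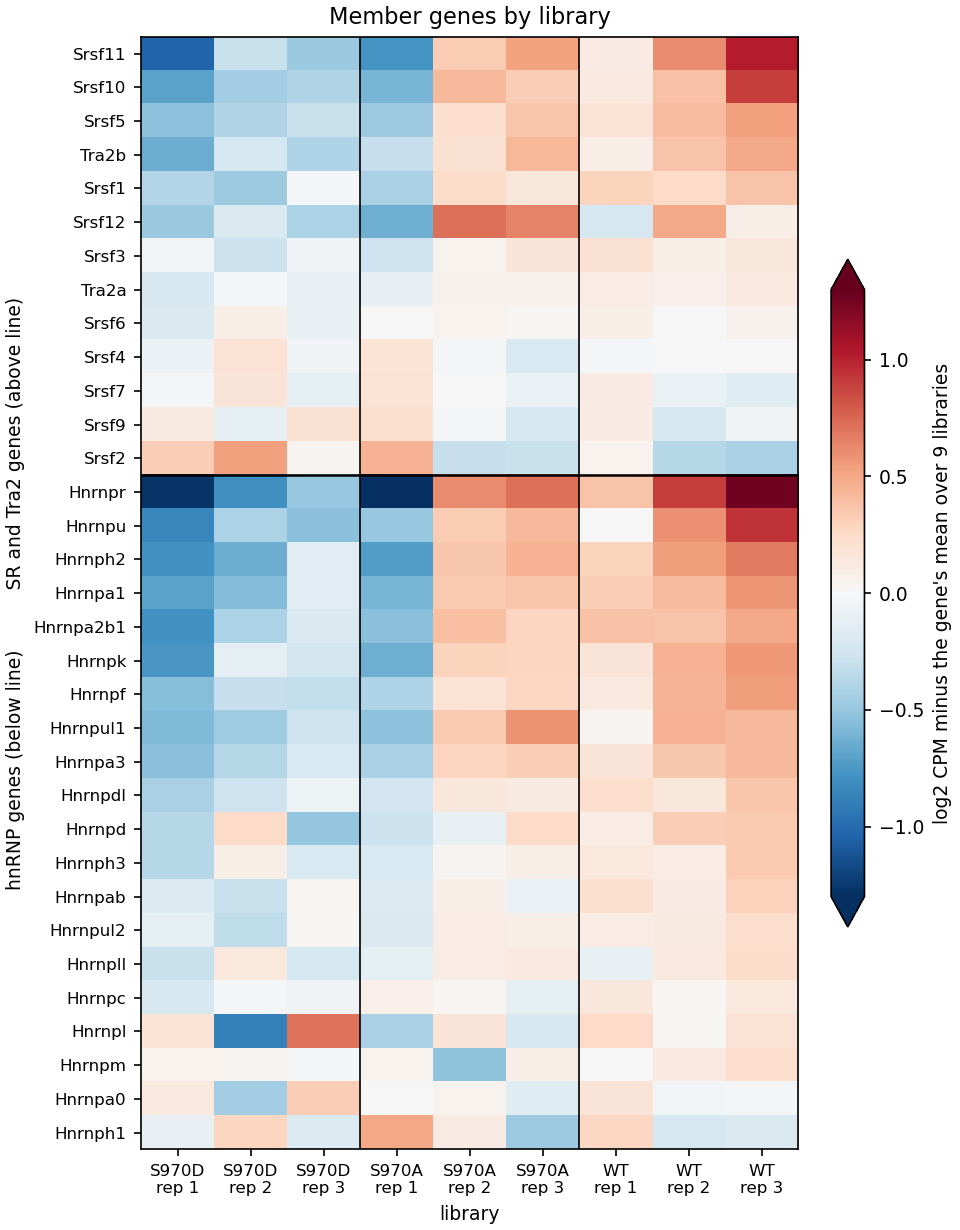
Deviation of each gene from its own mean over the 9 libraries (log2 CPM), SR and Tra2 genes above the line and hnRNP genes below it, with libraries in columns as S970D, S970A and WT. Of the 20 hnRNP genes, 17, 15 and 16 lay below their mean in the 3 S970D libraries and 17 in S970A replicate 1, against 3, 2 and 2 in the WT libraries.

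S970D was compared with WT to ask whether the aspartate form leaves a different transcriptome from the unchanged protein. Across both families the S970D libraries were mostly lower: the difference was below 0 in 9 of 13 SR genes and 19 of 20 hnRNP genes, with a median log2 difference of -0.26 for SR genes and -0.48 for hnRNP genes, against -0.00 over all genes. Most hnRNP genes of the A/B, F/H, K, R and U classes had lower levels, by up to a ratio of 0.307 for Hnrnpr, while Srsf2 had a higher level, by a ratio of 1.46. The test across all genes, limma without a replicate term, called none of the 33 members at an adjusted p under 0.05, against 0.00626% of all genes. The replicate number was also fitted as a block, which the pairing check allows for these groups. No label says what a shared number marks. The block was fitted over all 9 libraries, S970A included. In replicate 2 the S970A deviations correlated by 0.067 with WT and 0.004 with S970D, under the check's bound of 0.1. With the block, 16 members were called against 45.5% of all genes. The share of members called was thus close to the background, and the direction was uneven: 15 members fell, against 23.3% of all genes, and 1 rose, against 22.2%. The groups did not overlap in 21 members, all lower in S970D and none higher, against 29.3% lower and 27.9% higher among all genes. In a fit to the 6 libraries of S970D and WT alone, the same counts of 15 lower and 1 higher were called, against 21.8% lower and 20.3% higher, 42.1% together, of all genes. With the block on these 6 libraries, 16 members were called, against 50% of all genes. In bulk RNA, fewer cells of a kind and less of an mRNA per cell cannot be told apart.

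Of the SR and Tra2 genes, 5 fell in S970D with the block. Srsf11, a splicing regulator that promotes inclusion of neuronal microexons, stood at 6.10, 6.85 and 6.66 log2 CPM in the S970D libraries, 6.36, 7.47 and 7.66 in S970A and 7.25, 7.75 and 8.16 in WT. It lies at chr3:158010473-158036639 on the minus strand (GRCm38). All S970D values were below all WT values. The log2 difference was -1.19 ± 0.37 (SE, n = 3 each), a ratio of 0.440, with a limma adjusted p of 0.0756 without the block and 0.00642 with it. This SE is from the limma fit to all 9 libraries without the block, so it includes the spread of the S970A libraries. With the block the SE was 0.17. Every ± given below is likewise the SE without the block, also where a p-value with the block stands beside it. Srsf10, which acts as a repressor when its arginine-serine region is dephosphorylated, had 6.77, 7.01 and 7.08 in S970D, 6.86, 7.89 and 7.78 in S970A and 7.59, 7.85 and 8.36 in WT. Its log2 difference was -0.98 ± 0.29 (limma adjusted p = 0.0756, and 0.00715 with the block), again with no overlap between S970D and WT.

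Srsf5, a smaller SR protein whose level follows growth and differentiation signals, had 7.11, 7.25 and 7.36 log2 CPM in S970D, 7.17, 7.87 and 8.003 in S970A and 7.82, 8.04 and 8.18 in WT. S970D and WT did not overlap, and the log2 difference was -0.77 ± 0.22 (limma adjusted p = 0.0756, and 0.00724 with the block). Tra2b, which binds GAA-rich enhancers and includes a poison exon of its own mRNA, had 6.87, 7.28 and 7.11 in S970D, 7.21, 7.71 and 7.94 in S970A and 7.59, 7.88 and 8.004 in WT. Its log2 difference of -0.74 ± 0.21 had a limma adjusted p of 0.0756 without the block and 0.00683 with it. Srsf1, which binds purine-rich enhancers and shuttles with mRNA to the cytoplasm, had 8.16, 8.07 and 8.52 in S970D, 8.12, 8.78 and 8.69 in S970A and 8.83, 8.79 and 8.91 in WT. The highest S970D value lay below the lowest WT value, with a log2 difference of -0.60 ± 0.20 (limma adjusted p = 0.0758, and 0.0227 with the block).

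Srsf2 moved the other way. This nuclear SR protein, long used as a marker of nuclear speckles under the name SC35, had 8.62, 8.83 and 8.33 log2 CPM in the S970D libraries, 8.75, 8.01 and 8.01 in S970A and 8.35, 7.93 and 7.88 in WT. S970D replicate 3 lay just below WT replicate 1, so the groups touched. The log2 difference was 0.54 ± 0.24, a ratio of 1.46, with a limma adjusted p of 0.115 without the block and 0.0379 with it. When the trend with GC content and length was removed as well, the difference was 0.49 with a limma adjusted p of 0.0657.

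The other 7 SR and Tra2 genes did not pass with or without the block. Srsf3, the smallest SR protein and an export adaptor, had 8.13, 7.88 and 8.12 log2 CPM in S970D, 7.90, 8.21 and 8.33 in S970A and 8.36, 8.24 and 8.31 in WT, and S970D lay below WT throughout. Its log2 difference was -0.26 ± 0.15 (limma adjusted p = 0.2004, and 0.165 with the block). Tra2a, the relative of Tra2b, had 6.46, 6.65 and 6.57 in S970D, 6.56, 6.73 and 6.72 in S970A and 6.77, 6.74 and 6.79 in WT, a log2 difference of -0.20 ± 0.12. These too did not overlap between S970D and WT, although neither passed. Srsf4, Srsf6, Srsf7 and Srsf9 differed by 0.03, -0.11, 0.05 and 0.11 on the log2 scale. Srsf12, a near-silent gene here, was at -2.60, -2.31 and -2.53 in S970D, -2.76, -1.40 and -1.47 in S970A and -2.34, -1.62 and -2.03 in WT, and its difference of -0.48 ± 0.43 was about the size of its error.

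Among the hnRNP genes, 10 of 20 fell with the block and none rose. Hnrnpr, a relative of Syncrip that is known for carrying mRNA in motor neuron axons, differed most. It stood at 6.65, 7.13 and 7.43 log2 CPM in the S970D libraries, 6.63, 8.54 and 8.65 in S970A and 8.30, 8.83 and 9.19 in WT, and lies at chr4:136310942-136359447 on the plus strand. S970D and S970A replicate 1 were low and the other 5 libraries high, with a log2 difference between S970D and WT of -1.70 ± 0.51 (limma adjusted p = 0.0756, and 0.00642 with the block). The transcript model used for it is the longest of the 33, at 21452 bases. Hnrnpu, a nuclear matrix protein that holds long RNAs on chromatin, had 9.17, 9.60 and 9.48 in S970D, 9.53, 10.35 and 10.44 in S970A and 10.01, 10.61 and 10.96 in WT. Its log2 difference was -1.11 ± 0.30, a ratio of 0.464, with a limma adjusted p of 0.0756 without the block and 0.00642 with it.

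The G-run binders of the F and H class were uneven. Hnrnph2, an X-linked gene, had 6.07, 6.21 and 6.71 log2 CPM in S970D, 6.14, 7.20 and 7.31 in S970A and 7.15, 7.40 and 7.53 in WT, a log2 difference of -1.03 ± 0.31 (limma adjusted p = 0.0756, and 0.00716 with the block). Hnrnpf had 8.22, 8.47 and 8.45 in S970D, 8.37, 8.95 and 9.04 in S970A and 8.90, 9.21 and 9.31 in WT, a log2 difference of -0.76 ± 0.20. No S970D value reached a WT value, and the limma adjusted p was 0.0756 without the block and 0.00652 with it. Hnrnph3 had 5.89, 6.34 and 6.06 in S970D, 6.06, 6.30 and 6.34 in S970A and 6.39, 6.36 and 6.60 in WT, and its difference of -0.35 ± 0.16 did not pass (limma adjusted p = 0.117, and 0.0610 with the block). Hnrnph1, nearly identical in sequence to Hnrnph2, showed no order: it had 8.75, 9.13 and 8.67 in S970D, 9.35, 8.96 and 8.37 in S970A and 9.12, 8.62 and 8.66 in WT. Reads shared between Hnrnph1 and Hnrnph2 could have been split between them in counting, so both values are uncertain.

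Of the abundant A/B class, 3 genes fell with the block. Hnrnpa1, which binds splicing silencers, had 9.56, 9.69 and 10.11 log2 CPM in S970D, 9.65, 10.60 and 10.61 in S970A and 10.57, 10.67 and 10.83 in WT, a log2 difference of -0.90 ± 0.27 (limma adjusted p = 0.0756, and 0.00882 with the block). Hnrnpa2b1, a reader of RNA sorting signals in neurons and other cells, had 9.50, 9.87 and 10.09 in S970D, 9.74, 10.67 and 10.56 in S970A and 10.66, 10.65 and 10.77 in WT, a log2 difference of -0.88 ± 0.26 (0.0756, and 0.00929 with the block). Both had their 3 S970D libraries and S970A replicate 1 below the other 5 libraries. Hnrnpa3, their less studied relative, had 9.29, 9.46 and 9.63 in S970D, 9.41, 10.11 and 10.15 in S970A and 9.99, 10.18 and 10.26 in WT, a log2 difference of -0.68 ± 0.22 (0.0756, and 0.00936 with the block). Hnrnpab, the most abundant, had 10.69, 10.58 and 10.89 in S970D, 10.69, 10.95 and 10.79 in S970A and 11.08, 10.98 and 11.16 in WT. Its S970D and WT libraries did not overlap, but the difference of -0.35 ± 0.15 did not pass (limma adjusted p = 0.106, and 0.0755 with the block). Genes of this class have many processed pseudogenes, so reads could have been shared with copies.

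The other 3 hnRNP genes that fell with the block were Hnrnpk, Hnrnpul1 and Hnrnpdl. Hnrnpk, which binds C-rich RNA and DNA, had 8.33, 8.97 and 8.85 log2 CPM in S970D, 8.45, 9.38 and 9.37 in S970A and 9.25, 9.54 and 9.65 in WT, a log2 difference of -0.76 ± 0.28 (limma adjusted p = 0.0799, and 0.00772 with the block). Hnrnpul1, a relative of Hnrnpu linked to the DNA damage response, had 6.16, 6.27 and 6.46 in S970D, 6.20, 7.08 and 7.32 in S970A and 6.77, 7.19 and 7.15 in WT, a log2 difference of -0.74 ± 0.27 (0.0799, and 0.0130 with the block). Neither overlapped with WT in any S970D library. Hnrnpdl, which represses its own mRNA through a poison exon in the 3′ UTR, had 7.68, 7.83 and 8.03 in S970D, 7.85, 8.24 and 8.22 in S970A and 8.32, 8.25 and 8.46 in WT, a log2 difference of -0.50 ± 0.16 (0.0756, and 0.0155 with the block).

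The remaining hnRNP genes gave no call. Hnrnpd (AUF1, a factor in decay of AU-rich mRNAs), Hnrnpul2, Hnrnpll and Hnrnpc differed by -0.46, -0.29, -0.22 and -0.20 on the log2 scale. Hnrnpl, a binder of CA repeats, varied widely within S970D, at 8.50, 7.45 and 9.03 log2 CPM in S970D, 7.90, 8.49 and 8.11 in S970A and 8.57, 8.33 and 8.51 in WT. Hnrnpm and Hnrnpa0 differed by -0.10 and -0.04, within their errors of 0.18 and 0.20. Hnrnpll, the least abundant hnRNP gene before scaling by length, had 5.93, 6.36 and 5.99 in S970D, 6.11, 6.32 and 6.36 in S970A and 6.13, 6.35 and 6.46 in WT. Centring each library on its median raised the median of all genes by 0.11 in S970D against WT and turned the signs of Srsf6, Hnrnpa0 and Hnrnpm, and quantile normalization turned that of Hnrnph1. None of these 4 had passed, and the signs of the other 29 members held under both scalings.

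**Figure D2:**
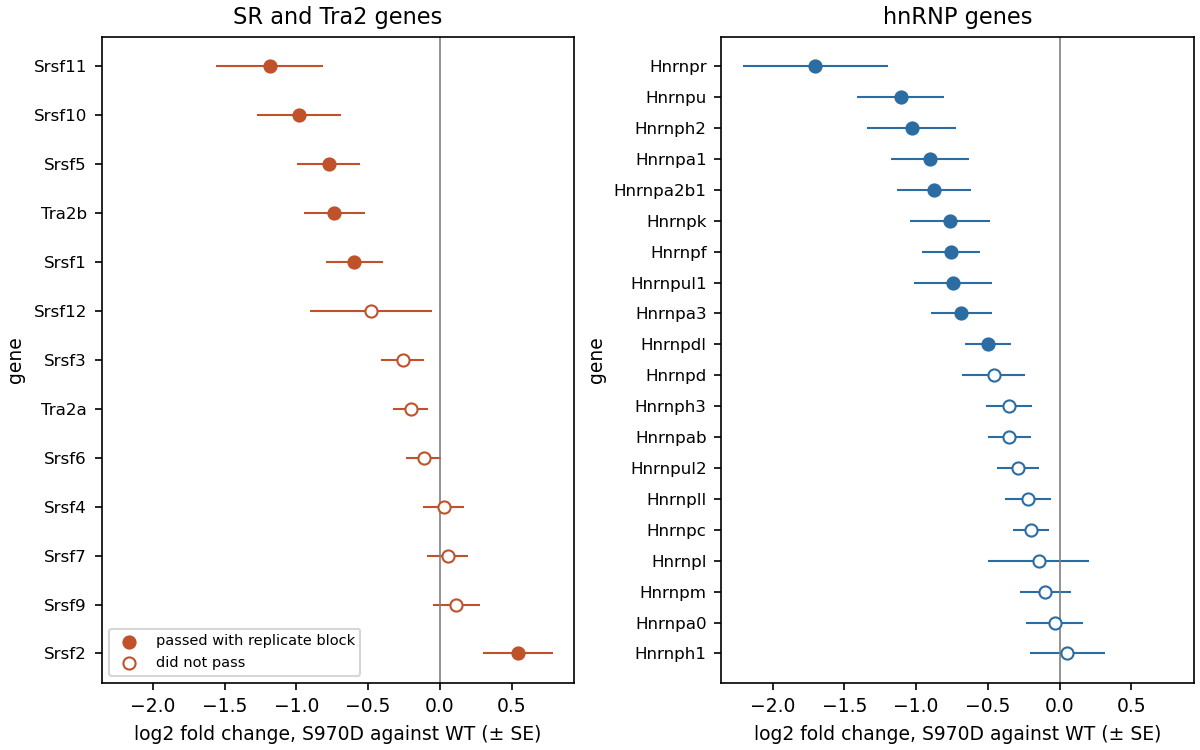
Log2 difference of each member in S970D against WT with its standard error from limma over 9 libraries without the replicate block. SR and Tra2 genes are on the left and hnRNP genes on the right, filled where the gene passed with the replicate block. The values run from -1.70 for Hnrnpr to 0.54 for Srsf2.

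GC content and length of the transcripts moved with these differences. Over 13253 coding genes the log2 difference between S970D and WT had a Spearman correlation of 0.567 with GC content and of -0.475 with length, and over the 33 members 0.377 and -0.372, given as descriptions across genes that share the same libraries. Within families, the correlation with GC content was 0.236 over the 13 SR genes and 0.540 over the 20 hnRNP genes. Median GC content was 44.1% for SR and 44.5% for hnRNP transcripts, against 50.9% for all coding genes, so the members belong to the GC-poor side. By decile of GC content, the median log2 difference of all genes ran from -0.76 at a median GC of 40.3% to 0.65 at 60.4%. Against the median of their own decile of GC content, 7 of 13 SR genes and 14 of 20 hnRNP genes lay below, and against that of their own decile of length, 10 of 13 and 16 of 20.

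**Figure D3:**
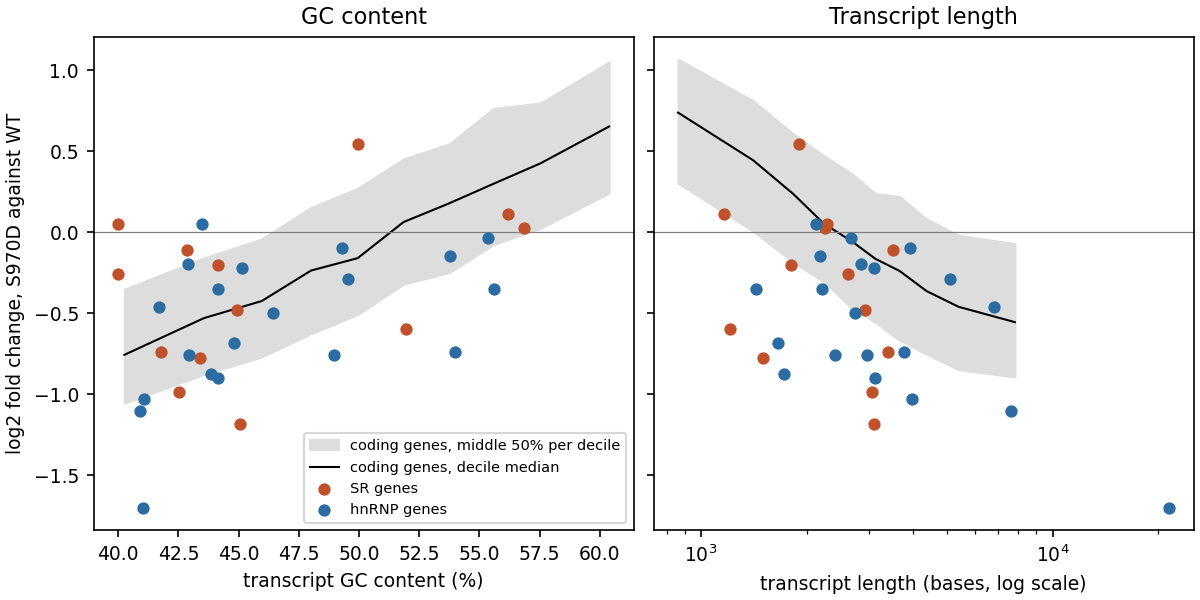
Log2 difference in S970D against WT over GC content (percent) and transcript length (bases, log axis), with SR and hnRNP genes as points and the median and the middle 50% of all coding genes by decile as a line and a grey band. The line for GC content runs from -0.76 in the GC-poorest decile to 0.65 in the richest.

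With the block and with the trend on GC content and length removed, 15 members were called, against 24.8% of all genes. Of these, 13 fell, against 12.2% of all genes, and 2 rose (Srsf3 and Srsf7), against 12.7%, and 10 were shared in the same direction with the fit that left the trend in. Srsf10, Srsf11, Hnrnpa1, Hnrnpf, Hnrnpr and Hnrnpul1 fell with the block, with the trend removed, and with the trend taken from the longest transcript of each gene, the last alternative being chosen after the data were seen. Hnrnpr then differed by -1.02 (limma adjusted p = 0.0142) and Srsf11 by -0.79 (0.0142), with the trend taken from the transcript with the longest coding sequence. Of the 16 members called with the block alone, 6 lost their call in that fit: Srsf2, given above, Hnrnpu at -0.28 (limma adjusted p = 0.162), Tra2b at -0.15 (0.340), Hnrnph2 at -0.35 (0.0649), Hnrnpk at -0.28 (0.0823) and Hnrnpdl at -0.21 (0.139). Hnrnph2, Hnrnpk and Hnrnpdl were called lower with the trend from the longest transcript, whereas Srsf1, Srsf5, Hnrnpa2b1 and Hnrnpa3 lost their call there. Srsf1 depended on the transcript chosen, at -0.998 (limma adjusted p = 0.0164) with the longest coding sequence and 0.13 (0.460) with the longest transcript. Newly called members were 5. Srsf3 reversed, with a difference of 0.32 (limma adjusted p = 0.0370) once the trend was removed. Srsf7, an SR protein with a zinc knuckle, was higher by 0.58 in that fit (limma adjusted p = 0.0270), while Hnrnpab, Srsf9 and Srsf4 were lower, with differences of -0.90 (0.0152), -0.57 (0.0191) and -0.36 (0.0402). With the longest transcript Hnrnpab, Srsf9 and Srsf4 were not called, at -0.41 (limma adjusted p = 0.0532), -0.14 (0.347) and -0.10 (0.560). The sign of the difference changed in 9 of 33 members when the trend was removed, and in 11 with the longest transcript.

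Summed over the family, hnRNP mRNA took 0.728%, 0.844% and 0.937% of the summed CPM in the S970D libraries, 0.791%, 1.26% and 1.25% in S970A and 1.25%, 1.35% and 1.48% in WT. SR and Tra2 mRNA took 0.193%, 0.222% and 0.214% in S970D, 0.206%, 0.264% and 0.270% in S970A and 0.270%, 0.274% and 0.295% in WT. S970D and WT did not overlap in either sum. The hnRNP sum was 3.77, 3.80 and 4.39 times the SR sum in S970D, 3.85, 4.77 and 4.63 times in S970A and 4.63, 4.95 and 5.01 times in WT, so this ratio was lower in every S970D library than in any WT library. A sum gives most weight to the most abundant genes. By the median gene, hnRNP genes exceeded SR genes by 1.16, 1.06 and 1.29 log2 CPM in S970D, 0.81, 1.03 and 0.78 in S970A and 0.98, 0.83 and 0.78 in WT, the opposite order. No test was made of these sums.

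**Figure D4:**
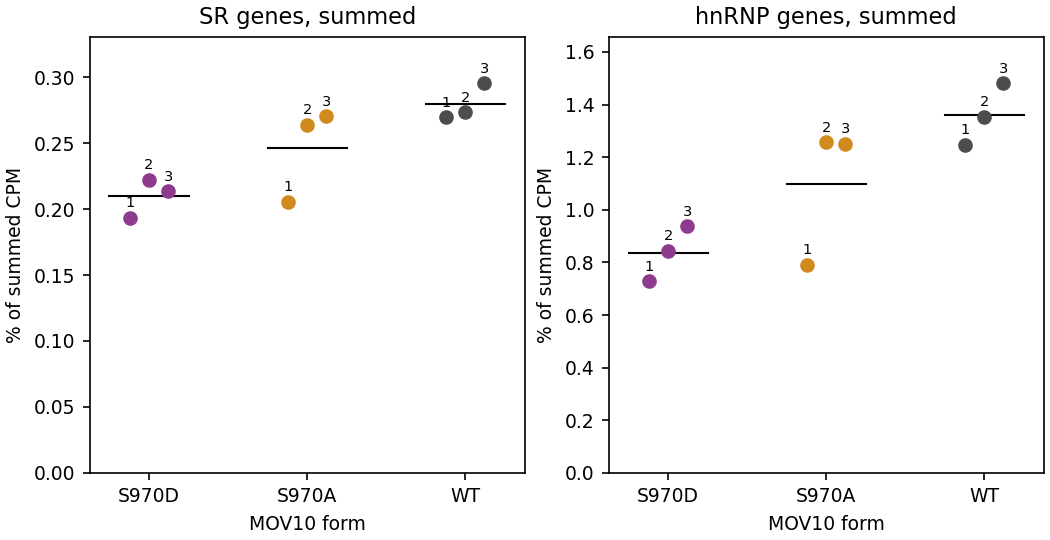
Summed level of SR and Tra2 genes and of hnRNP genes in each library, as a percent of the summed CPM, by group, with replicate numbers above the points and a line at each group mean. The hnRNP share is 0.728% to 0.937% in S970D and 1.25% to 1.48% in WT.

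Ratios between close relatives within the families are given as a description. Of 9 pairs of relatives chosen after the values were seen, 5 had log2 ratios in S970D wholly below those in WT. Among all single genes, 57.2% did not overlap between these groups. No share over other pairs was computed, so the 5 pairs are not shown to exceed the background. The order of the genes in a pair sets the sign of its ratio. The trend on GC content and length was not removed from the ratios. Tra2b over Tra2a had log2 ratios of 0.40, 0.63 and 0.54 in S970D, 0.65, 0.98 and 1.22 in S970A and 0.83, 1.14 and 1.21 in WT. Srsf1 over Srsf9 had 0.90, 1.06 and 1.19 in S970D, 0.78, 1.68 and 1.79 in S970A and 1.59, 1.87 and 1.83 in WT. Both pairs share their domain layout, and in both every S970D ratio lay below every WT ratio. The differences between S970D and WT were -0.53 for Tra2b over Tra2a, -0.71 for Srsf1 over Srsf9, -0.66 for Srsf5 over Srsf6, -0.31 for Srsf3 over Srsf7 and -0.45 for Hnrnpul1 over Hnrnpul2. For each, an exact two-sided permutation test gave p = 0.1, the smallest that 3 against 3 libraries allow, and 0.45 after Benjamini-Hochberg adjustment over the 27 tests of 9 pairs in 3 comparisons. Hnrnpa1 over Hnrnpa2b1 kept a ratio near 0, with -0.03 between S970D and WT (exact permutation p = 0.9). Hnrnph2 over Hnrnph1 differed by -1.08 with overlapping groups (exact permutation p = 0.2).

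**Figure D5:**
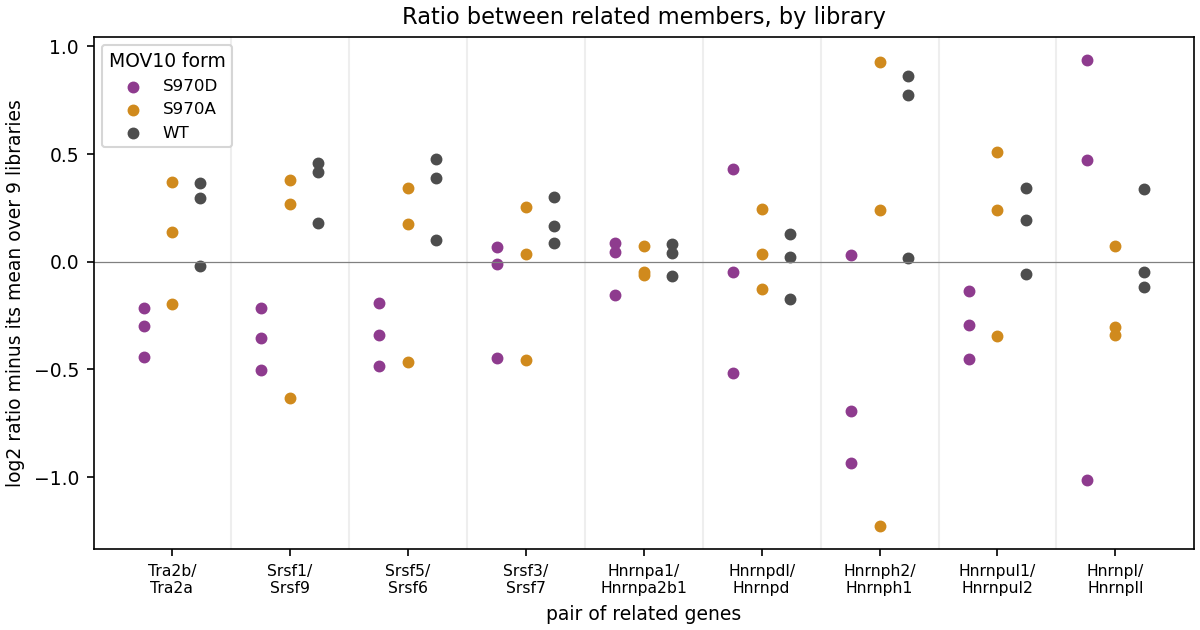
Log2 ratio of the levels of 2 related genes minus the mean of that ratio over the 9 libraries, for 9 pairs, with a point for each library coloured by group. For Tra2b over Tra2a the S970D points, from ratios of 0.40 to 0.63, lie below the WT points, from ratios of 0.83 to 1.21.

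The alanine form was compared with WT as the counterpart that cannot be phosphorylated at serine 970. None of the 33 members passed in limma, against 0% of all genes, with 1.75% of all genes at an unadjusted p under 0.05. The median log2 difference was -0.10 for SR genes and -0.26 for hnRNP genes, against -0.01 over all genes, and the groups did not overlap in 5 of 33 members, against 6.42% of all genes. These 5 (Srsf1, Tra2a, Hnrnpab, Hnrnpdl and Hnrnph3) were lower in S970A. Hnrnpab differed by -0.26 ± 0.15 and Srsf1 by -0.31 ± 0.20, each with a limma adjusted p of 0.776. Hnrnpr at -0.83 ± 0.51, Srsf11 at -0.56 ± 0.37, Hnrnph2 at -0.48 ± 0.31, Srsf10 at -0.42 ± 0.29, Hnrnpf at -0.35 ± 0.20 and Srsf5 at -0.33 ± 0.22 had overlapping groups.

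Much of the size of these S970A differences rested on replicate 1. It lay below both other S970A libraries in 9 of 13 SR genes and 16 of 20 hnRNP genes, and within the range of the S970D libraries in 10 of 13 and 16 of 20. These counts were not made over all genes, so they are not shown to be particular to the members. Without replicate 1, Hnrnpr differed from WT by -0.18, Srsf11 by -0.15, Srsf10 by -0.10, Hnrnph2 by -0.10, Hnrnpf by -0.14, Srsf1 by -0.11 and Srsf5 by -0.08. Hnrnpab differed by -0.20. The medians were then -0.05 for SR genes and -0.12 for hnRNP genes, against 0.006 over all genes, and still none of the members passed. The direction mostly stayed: 11 of 13 SR genes and 18 of 20 hnRNP genes lay below WT without replicate 1, against 9 and 19 with it. Of all 15977 genes, 7729 lay below WT without replicate 1 and 8100 with it. S970D and S970A share the WT libraries in these comparisons, so the 2 sets of differences are not independent.

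S970D against S970A compared the 2 substitutions directly. None of the 33 members passed in limma with all 9 libraries, against 0% of all genes, with 6.95% at an unadjusted p under 0.05, and none had groups that did not overlap, against 8.07% of all genes. Hnrnpu differed by -0.69 ± 0.30, Hnrnpul1 by -0.57 ± 0.27, Srsf10 by -0.56 ± 0.29, Tra2b by -0.53 ± 0.21, Srsf5 by -0.44 ± 0.22, Srsf11 by -0.63 ± 0.37, Hnrnpa3 by -0.43 ± 0.22 and Hnrnpf by -0.41 ± 0.20, with a limma adjusted p of 0.411 for each. All 8 were lower in S970D on average, and in each S970A replicate 1 lay within the range of the S970D libraries. S970A replicate 1 was set apart for its likeness to S970D in values of these same libraries. Leaving it out therefore favours a separation of the 2 groups, and the calls that follow are no separate evidence of one. Without S970A replicate 1, and so with 2 S970A libraries, 15 members were called, against 39.5% of all genes. Of these, 14 fell in S970D, against 20.8% of all genes, and Srsf2 rose, against 18.7%. Srsf5 then differed by -0.69 (limma adjusted p = 0.0148), Tra2b by -0.74 (0.0168), Srsf10 by -0.89 (0.0173), Srsf11 by -1.03 (0.0243), Hnrnpul1 by -0.90 (0.0145), Hnrnpa3 by -0.67 (0.0156), Hnrnpf by -0.62 (0.0201), Hnrnpu by -0.98 (0.0220) and Srsf2 by 0.59 (0.0388). The same library's removal called 16 members in S970D against WT without any block, the same 16 as with the block, against 47.7% of all genes.

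A test for any difference among the 3 groups called none of the members without the block, against 0% of all genes in limma, with 13 members and 24.7% of all genes at an unadjusted p under 0.05. With the block it called 4 SR and 10 hnRNP genes, against 29.5% of all genes.

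Genes that work with SR and hnRNP proteins were counted in S970D against WT, and none of them passed without the block. With the block, of 8 measured SR kinases and import factors 5 fell and none rose, against 23.3% lower and 22.2% higher among all genes, and their median log2 difference was -0.54. Clk4, which phosphorylates SR proteins in the nucleus, had 4.55, 4.72 and 4.66 log2 CPM in S970D, 4.61, 5.13 and 5.16 in S970A and 5.18, 5.32 and 5.52 in WT, a difference of -0.69 ± 0.18 (limma adjusted p = 0.00743 with the block). Clk1 fell by 0.57 (0.0148 with the block) and Prpf4b, a kinase of the spliceosome, fell by 1.02 (0.0120 with the block). Of 27 SR-related proteins, 18 fell and 1 rose, with a median of -0.60. Rbm39, a relative of U2AF, Luc7l3, which associates with U1, and the speckle protein Pnn differed by -1.08 ± 0.27, -0.90 ± 0.17 and -0.85 ± 0.21, while the speckle scaffold Srrm2 was the 1 that rose, by 0.93 ± 0.35.

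The core particles went the other way. Of 35 core snRNP proteins, 17 rose and 3 fell with the block, against 22.2% higher and 23.3% lower among all genes, with a median of 0.32. Snrpa, the U1 protein that binds its stem loop, had 8.36, 8.05 and 7.94 log2 CPM in S970D, 8.31, 6.99 and 6.75 in S970A and 7.34, 6.63 and 6.27 in WT, a difference of 1.37 ± 0.41 (limma adjusted p = 0.00642 with the block). Sart1 and Snrpg, proteins of the tri-snRNP and of the Sm ring, were higher by 1.38 ± 0.42 and 1.04 ± 0.33. Of 23 proteins related to hnRNP proteins under other symbols, 10 fell and 1 rose, with a median of -0.30: Syncrip, the closest relative of Hnrnpr, differed by -1.14 ± 0.31, Elavl1 by -1.02 ± 0.21 and Fubp1 by -0.98 ± 0.28. Of 19 measured tissue-specific splicing regulators 7 fell and 2 rose, with a median of -0.24, among them Elavl2 at -0.94 ± 0.28, Celf1 at -0.86 ± 0.27 and the neuronal factor Nova2 at 0.51 ± 0.16. The shares called in the hnRNP-like and tissue-specific lists, 47.8% and 47.4%, were close to the 45.5% of all genes. With the trend on GC content and length removed as well, the calls lower and higher were 4 and 0 for the kinases, 10 and 1 for the SR-related proteins, 1 and 10 for the core particles, 6 and 3 for the hnRNP-like proteins and 4 and 4 for the tissue-specific regulators, against 12.2% and 12.7% of all genes. These were in part different genes: 2 of the 5 kinases called with the block (Clk4 and Srpk2) were called again, beside Clk2 and Clk3. Among the genes named above, Clk1 at -0.22 (limma adjusted p = 0.216), Prpf4b at -0.19 (0.398), Luc7l3 at -0.29 (0.111), Pnn at -0.34 (0.0661), Fubp1 at -0.20 (0.221) and Celf1 at -0.26 (0.119) lost their call. Clk4, Syncrip and Elavl2 lost theirs with the longest transcript, at -0.04 (limma adjusted p = 0.760), -0.13 (0.457) and -0.21 (0.134), whereas Pnn was called lower there, at -0.44 (0.0278). In that fit the calls lower and higher were 2 and 0 for the kinases, 9 and 3 for the SR-related proteins and 1 and 13 for the core particles. They were 5 and 3 for the hnRNP-like proteins and 2 and 5 for the tissue-specific regulators, against 12.9% and 14.4% of all genes.

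Features of gene structure, which the choice by symbol did not use, were counted from the annotation. At least 1 annotated transcript subject to nonsense-mediated decay was present in 11 of 13 SR genes and 10 of 20 hnRNP genes, against 28.1% of all coding genes. A retained-intron transcript was annotated in 10 of 13 SR genes and 14 of 20 hnRNP genes, against 56.5%. The number of annotated transcripts per gene was not matched in either comparison. SR transcripts had a median length of 2288 bases with 6 exons, hnRNP transcripts 2908.5 bases with 11.5 exons, and all coding genes 2906 bases with 9 exons. The median 3′ UTR was 1468 bases for SR genes and 1040 bases for hnRNP genes, against 894 bases for all coding genes. These models come from the annotation and were not measured in the libraries. In the authors' deposited table, a column of colours marks 6419 genes (40.2%), among them 6 SR genes (3 yellow, 2 turquoise and Srsf2 blue) and 13 hnRNP genes (7 turquoise and 6 yellow). What set the colours is not stated.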

How the data were processed

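Total RNA from the 9 libraries was made into stranded mRNA libraries and sequenced on 1 lane, as the labels' protocols say. Tools in the submitters' processing notes are Salmon 1.1.0, bcl2fastq 2.20 and R 3.6.3, and the build is GRCm38. The authors deposited 1 table of log2 CPM per gene and library. Its prior count, scaling and filter are not stated, no counts are in it, and depth is therefore unknown. A prior count understates the change of low genes such as Srsf12.

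The labels gave each library's group and replicate number, but not what a shared replicate number marks. Limma 3.58.1 in R 4.3.3 with an intensity trend was fitted to all genes and 9 libraries by group, with two-sided p-values, Benjamini-Hochberg adjustment over all 15977 genes and a call at an adjusted p under 0.05. Checks on simulated data preceded it. Same-numbered libraries' deviations from group means correlated across genes between S970D and WT by 0.308 in replicate 1, 0.107 in replicate 2 and 0.156 in replicate 3. Each exceeds 0.1, so values with the replicate block, fitted over all 9 libraries, are given beside that comparison. The other comparisons did not meet this bound in replicate 2, at 0.067 for S970A with WT and 0.004 for S970D with S970A. In replicates 1 and 3 they exceeded it, at 0.592 and 0.488 for S970A with WT and 0.381 and 0.244 for S970D with S970A. Transcript length and GC content came from GENCODE vM21, from the transcript with the longest coding sequence, and promoters from RefSeq GRCm38.p6. The GC and length trend was removed with splines of 5 degrees of freedom.

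Members, lists and tests were chosen with earlier results of these data known. Genes named are those with the largest moderated test statistic (8 SR or Tra2 and 12 hnRNP genes in S970D against WT, 4 and 4 in the other comparisons), the most and least abundant of each family, and up to 3 of each related list. The other members, named so that all 33 are accounted for, and Srrm2, Srpk2, Clk2 and Clk3 were added after their values were seen. Alternatives were other scalings, a pseudocount of 1 CPM, a minimum mean of 1 log2 CPM, fits to the libraries compared, no trend prior, the block, the GC and length trend, and leaving out each library.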

Additional observations from a re-analysis of the deposited data

How the results depend on the processing

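The members called in S970D against WT were 0 as reported, and 16 with the replicate block, 16 with the GC and length trend and S970A replicate 1 both out, 16 in the 6 libraries compared, 16 with the block on these 6 alone, 15 with the block and the trend removed, 11 with the trend from the longest transcript, and 0 to 16 when 1 library was left out. Over all genes the count was 1 as reported, and 7276 with the block, 3968 with block and trend removed, 4166 with the trend and S970A replicate 1 out, 6727 in the 6 libraries, 7985 with the block on them, 4364 with the longest transcript, 0 with the trend removed alone, with the pseudocount or without the trend prior, and 0 to 7615 with 1 library left out. The median of SR genes was -0.070 with the longest transcript, and that of hnRNP genes was -0.28 with the trend removed in 3 settings, -0.33 with the longest transcript and -0.66 after quantile normalization. In S970A against WT, all genes gave 0 to 1 with 1 library left out, the SR median reversed to 0.0064 with the trend removed, with or without the block, and 0.064 with the longest transcript, and the hnRNP median was -0.088 with the trend and S970A replicate 1 out and -0.37 to -0.12 with 1 library left out. In S970D against S970A, members called were 9 with the trend and S970A replicate 1 out and 0 to 15 with 1 library left out, all genes 2659 and 0 to 6307, and the hnRNP median -0.38 after quantile normalization and -0.35 to -0.15 with 1 library left out. For any difference among the 3 groups, members called were 14 with the block, 6 with block and trend removed, 11 with the trend and S970A replicate 1 out, 4 with the longest transcript and 0 to 16 with 1 library left out, and all genes 4716, 1250, 2927, 1332 and 0 to 6558. Of the members named for the size of their test statistic, signs reversed for Srsf1 (0.13), Tra2a (0.18) and Hnrnpa3 (0.063, and 0.014 in S970D against S970A) with the longest transcript, and for Srsf3 (0.32 with the trend removed, 0.33 with the longest transcript). Over all 33 members 9 signs changed with block and trend removed (3 called in the new direction: Srsf3, Srsf4 and Srsf9) and 11 with the longest transcript (1 called, Srsf3). In the ranges of members called with 1 library left out, the only counts above 0 came from leaving out S970A replicate 1. The block changed no call in the other comparisons of 2 groups. The causes were not tested.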
